A study of Homo sapiens with 16 samples.

Results

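Complement is the plasma and cell-surface cascade that tags targets for clearance and can pierce membranes, and 9 of its components and regulators were followed here across 4 human breast cell lines. They were C1R, C1S, C3, C4BPB, CFB, SERPING1, CD46, CD55 and CD59. Every probe set annotated with exactly 1 of these symbols was taken, which gave 16 of the 22215 probe sets fitted and 9 of 11963 genes. C1R (212067_s_at), C1S (208747_s_at), C3 (217767_at), C4BPB (208209_s_at) and SERPING1 (200986_at) had 1 probe set each, CFB and CD55 had 2, CD46 had 3 and CD59 had 4. Where a gene had several, values are of its leading probe set, the one with the highest average level across arrays, unless another is named. The genes were chosen with earlier results of these data known, so their counts of calls are descriptions and no test of the set.

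The data came from 16 Affymetrix U133 2.0 arrays in 8 groups of 2. LM24175 and MDAMB231, the invasive lines of the study, carried either a RECK construct under constitutive expression after stable infection (RECK) or the empty vector (EV). Hs606T and Hs343T, the poorly invasive lines, had received RECK siRNA (siRECK) or a scramble control (siSCR) by transfection. RECK is a membrane-anchored inhibitor of matrix metalloproteinases, and the series compared expression with more or less of it. LM24175 is known as a lung-metastatic derivative of MDAMB231, so these lines are not independent of each other. The labels do not say whether infected cells were pools or clones, nor whether replicate arrays stem from separate cultures. P-values therefore reflect array-to-array spread, pooled over all 8 groups, that may be purely technical, and 2 arrays a group limit the precision of every value.

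Complement can be started by 3 routes, of which the classical one begins when C1q binds a target and its attached proteases, C1r and then C1s, become active. All routes meet at C3, and in the alternative route factor B joins C3b to form the enzyme that cuts more C3. Host cells restrain the cascade with C1 inhibitor (SERPING1), with C4b-binding protein in plasma, and with CD46, CD55 and CD59 on their surface. The liver makes most plasma complement, while fibroblasts, epithelial cells and tumour cells make components locally, and several of these genes are known to respond to interferons and inflammatory cytokines.

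Levels are log2 values per probe set as deposited. Differences are log2 differences of the first group minus the second, with 95% intervals and adjusted p-values from limma over all 22215 probe sets, and an adjusted p under 0.05 passed. Their spread was pooled over all 8 groups, so an interval is not a line's own replicate spread. For C3 the SD ran from 0.02 in MDAMB231 RECK to 1.37 in LM24175 RECK, yet every comparison of 2 groups had an SE of 0.43. The shares of all probe sets with an unadjusted p under 0.05, or with non-overlapping arrays, were not counted. Members with either are therefore only described. Array medians lay between 6.42 and 6.56, and replicate arrays correlated at 0.994 to 0.998. RECK went against the siRNA labels on its leading probe set. Its leading probe set read 11.31 and 11.24 on Hs343T arrays labelled siRECK, against 6.07 and 5.52 on those labelled siSCR (difference 5.48, SE 0.16; adjusted p = 1.12e-10). In Hs606T it read 11.17 and 11.02 on arrays labelled siRECK, against 8.74 and 8.65 on those labelled siSCR (difference 2.40; adjusted p = 1.07e-05). RECK was not measurably raised on arrays labelled as carrying the construct, where none of its probe sets passed. The leading one differed by -0.42 in LM24175 (adjusted p = 0.188) and 0.03 in MDAMB231 (adjusted p = 0.965). Whether the RECK probes lie within the construct is not given. All directions below are those of the array labels. If the siRNA labels had been exchanged, which was not tested, the sign of every siRECK minus siSCR difference would turn and siSCR would be the knockdown arm.

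Markers of cell type separated the lines. Of 11 fibroblast markers, none lay below the lower quartile of all probe sets in any Hs606T or Hs343T group, and their levels summed to between 125.2 and 139.8 per array there, against 50.5 to 66.3 in LM24175 and MDAMB231. The 9 epithelial markers summed to between 54.4 and 59.0 in Hs606T and Hs343T, against 70.0 to 75.7 in LM24175 and MDAMB231. Below the lower quartile lay 2 or 3 of the 9 epithelial and 4 to 6 of the 14 leukocyte markers, depending on the group, and 3 to 8 of the 11 fibroblast markers in LM24175 and MDAMB231. CDH1, PTPRC and ALB were among those below it in every group, with group means of 3.84 to 4.14, 3.10 to 3.72 and 3.40 to 3.65, while most epithelial and leukocyte markers were above it. Without detection calls, such values cannot be separated from background. The 14 leukocyte markers summed to between 65.3 and 71.3 on all arrays.

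The arrays of LM24175 RECK and of MDAMB231 EV differed from their replicates in the same direction, with a correlation of 0.449 between the replicate gaps of these groups across probe sets, which are not independent. On the first LM24175 RECK array 14 of the 16 complement probe sets lay below the second, at a median gap of -0.20. On the first MDAMB231 EV array 13 of 16 did, at a median gap of -0.24. The gap was widest for C3 in LM24175 RECK (-1.93) and for CFB in MDAMB231 EV (-1.45). With 2 arrays a group, the gap does not show which array of a pair stands apart. Calls of the 9 genes in the invasive lines are therefore also given for a fit without both first arrays of these groups. A fit without both second arrays of these groups was added after seeing the data. For other complement genes, values of these 2 fits are not given.

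**Figure D1:**
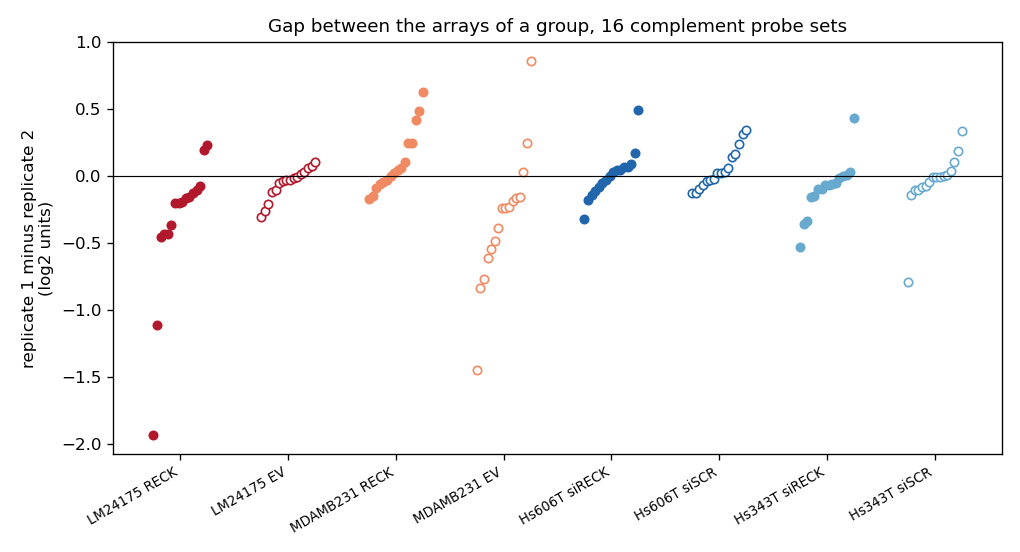
Difference between the replicate arrays of each group (replicate 1 minus replicate 2, log2 units) for the 16 complement probe sets, 1 point a probe set, sorted within a group. In LM24175 RECK 14 of 16 points and in MDAMB231 EV 13 of 16 lie below 0, and the lowest are C3 at -1.93 and CFB at -1.45.

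The classical-route proteases C1R and C1S and the inhibitor SERPING1 were higher in Hs606T and Hs343T than in LM24175 and MDAMB231 on every array. C1R group means spanned 5.45 log2 units, with the order Hs606T siSCR (10.90 ± 0.07, SD, n = 2 here and below), Hs606T siRECK (10.89 ± 0.08), Hs343T siRECK (9.68 ± 0.04), Hs343T siSCR (7.89 ± 0.10), LM24175 EV (7.21 ± 0.01), LM24175 RECK (6.63 ± 0.32), MDAMB231 RECK (6.28 ± 0.18) and MDAMB231 EV (5.45 ± 0.54). Arrays of neighbouring groups overlapped between the Hs606T groups and between LM24175 RECK and MDAMB231 RECK. C1S kept the same order over a span of 7.04, from 11.36 ± 0.02 in Hs606T siSCR to 4.32 ± 0.59 in MDAMB231 EV, where it lay below the lower quartile of 4.50. Its only overlapping neighbours were LM24175 RECK and MDAMB231 RECK. SERPING1 stood at 9.62 ± 0.07 in Hs343T siRECK, 9.24 ± 0.23 in Hs606T siRECK, 9.06 ± 0.10 in Hs606T siSCR and 7.88 ± 0.08 in Hs343T siSCR, and between 4.86 and 5.41 in the 4 groups of invasive lines. In bulk RNA, fewer cells of a type and less RNA per cell cannot be told apart.

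C3 and CFB, the core of the alternative route, followed other orders. C3, the protein on which all routes converge, was led by Hs606T siSCR (9.40 ± 0.04), LM24175 EV (9.29 ± 0.03) and Hs606T siRECK (9.09 ± 0.03), and was lowest in MDAMB231 EV (6.61 ± 0.43). LM24175 RECK had the widest spread (8.72 ± 1.37), its arrays reading 7.76 and 9.69. CFB, the gene of factor B, was highest in Hs343T siRECK (9.53 ± 0.11), followed by Hs606T siSCR (8.99 ± 0.04) and Hs606T siRECK (8.23 ± 0.12), and its arrays overlapped between LM24175 RECK (6.03 ± 0.79) and LM24175 EV (6.42 ± 0.06). The second CFB probe set, 211920_at, lay below the lower quartile in all 8 groups (means 3.84 to 4.38), and its differences did not pass in any comparison.

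Among the regulators, C4BPB was highest in MDAMB231, where C1R and C1S were lowest. C4BPB encodes the beta chain of C4b-binding protein and stood at 7.74 ± 0.03 in MDAMB231 EV, 7.72 ± 0.18 in MDAMB231 RECK, 6.996 ± 0.08 in LM24175 EV and 5.47 ± 0.14 in LM24175 RECK. In Hs606T and Hs343T its means were 4.19 to 4.83, and 3 of these 4 groups lay below the lower quartile. CD46, a cofactor for the cutting of C3b and C4b, spanned 1.55, from 12.14 ± 0.04 in LM24175 EV to 10.59 ± 0.05 in Hs343T siRECK. CD55, which speeds the decay of the C3-cutting enzymes, spanned 1.77, from 11.76 ± 0.01 in LM24175 EV to 9.99 ± 0.03 in Hs606T siRECK. CD59, which blocks the assembly of the membrane pore, spanned 0.995, from 13.36 ± 0.01 in Hs343T siSCR to 12.37 ± 0.13 in MDAMB231 EV.

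**Figure D2:**
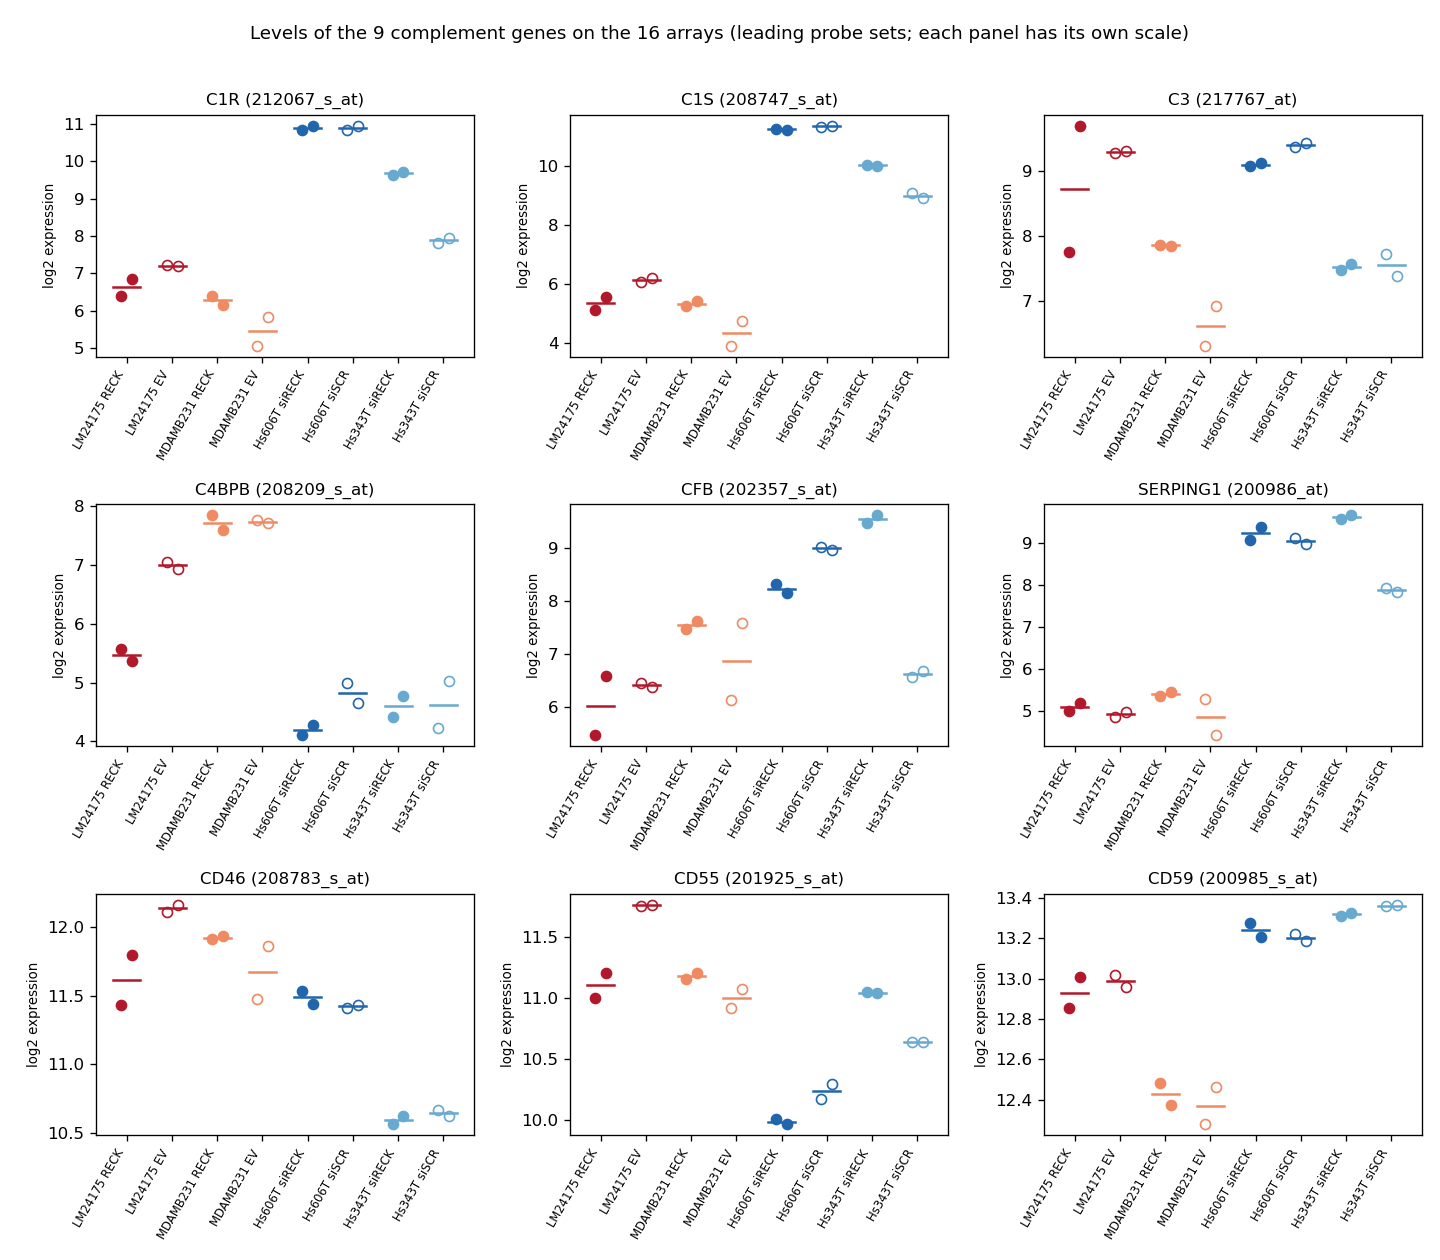
Log2 expression of the leading probe set of each complement gene (1 panel a gene, own scale) on the 16 arrays, with 1 point an array, filled for RECK and siRECK and open for EV and siSCR, and a line at each group mean. C1R, C1S and SERPING1 lie higher in Hs606T and Hs343T (blue) than in LM24175 and MDAMB231 (red and orange), and C4BPB lies lower.

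Start-site sequences from RefSeq (GRCh38.p14) are shown for CFB and C1R, which differed most between Hs343T siRECK and siSCR, for C4BPB, which differed most in LM24175, and for CD46 as a window without a match. Of the 9 genes, 6 were found in the table (C1R, C4BPB, CFB, CD46, CD55 and CD59), with 13 start sites. C1S, C3 and SERPING1 had no entry. The 250 bases before each start site were searched on both strands for the interferon-related motifs TTCNNNGAA (GAS, bound by STAT factors) and the ISRE core (2 GAAA blocks separated by any 2 bases), and for the NF-kB consensus. Capitals mark the matches, and no matches overlapped another motif.
CFB chr6:31945845-31946094, plus strand: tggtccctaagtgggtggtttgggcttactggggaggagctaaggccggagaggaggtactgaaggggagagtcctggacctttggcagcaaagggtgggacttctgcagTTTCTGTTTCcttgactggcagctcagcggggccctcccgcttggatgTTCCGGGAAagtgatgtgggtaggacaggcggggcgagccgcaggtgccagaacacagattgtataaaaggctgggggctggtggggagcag
C1R chr12:7091894-7092143, minus strand: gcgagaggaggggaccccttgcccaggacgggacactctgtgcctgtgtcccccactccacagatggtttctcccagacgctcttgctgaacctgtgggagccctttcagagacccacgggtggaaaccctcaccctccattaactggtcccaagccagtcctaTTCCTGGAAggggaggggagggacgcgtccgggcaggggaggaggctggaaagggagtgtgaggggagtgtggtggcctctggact
C4BPB chr1:207089033-207089282, plus strand: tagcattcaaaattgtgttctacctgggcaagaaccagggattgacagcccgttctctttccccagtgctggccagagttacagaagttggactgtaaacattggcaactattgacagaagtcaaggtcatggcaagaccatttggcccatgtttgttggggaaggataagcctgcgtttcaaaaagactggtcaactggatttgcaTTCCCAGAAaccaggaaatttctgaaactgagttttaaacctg
CD46 chr1:207751788-207752037, plus strand: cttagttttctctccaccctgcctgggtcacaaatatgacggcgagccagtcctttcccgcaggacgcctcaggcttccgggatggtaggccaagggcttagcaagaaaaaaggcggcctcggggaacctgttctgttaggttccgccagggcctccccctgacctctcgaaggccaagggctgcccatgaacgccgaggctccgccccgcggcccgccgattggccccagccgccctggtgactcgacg

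CFB held 1 ISRE core match, from 140 to 131 bases before its start site, and 1 GAS match, from 92 to 84 bases before it. The C1R window shown held 1 GAS match at 86 to 78 bases, and the window of the other C1R start site held none. The C4BPB window shown held 1 GAS match at 43 to 35 bases, while its other 2 start sites held none. A GAS match also stood in overlapping windows of 2 of the 4 CD59 start sites, and the CD46 and CD55 windows held no match. Over all 35116 start-site windows, 6.57% held the GAS motif, 3.02% the ISRE core and 5.21% the NF-kB consensus, which none of the 13 windows held. A match is a description of these letters and does not show binding.

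In Hs343T, 4 genes of the early cascade and CD55 were higher on arrays labelled siRECK. Of the 16 complement probe sets 6 passed, beside 24.7% of all probe sets, with 5 higher (10.4% of all) and 1 lower (14.3% of all). CFB read 9.46 and 9.61 there, against 6.57 and 6.67 on arrays labelled siSCR, and rose 7.52-fold (95% interval 4.21 to 13.4; difference 2.91, SE 0.38; adjusted p = 0.000111). C1R read 9.65 and 9.71 with siRECK, against 7.82 and 7.96 with siSCR, and rose 3.44-fold (95% interval 2.53 to 4.70; adjusted p = 3.56e-05). SERPING1, whose product inactivates C1r and C1s, read 9.57 and 9.66 with siRECK, against 7.94 and 7.83 with siSCR, a rise of 3.32-fold (95% interval 2.42 to 4.56; adjusted p = 5.42e-05). The proteases and their inhibitor were thus all higher on both siRECK arrays, with no overlap. C1S rose less, by 1.02 (95% interval 0.56 to 1.48; adjusted p = 0.00319), with 10.03 and 10.02 on siRECK arrays, against 9.10 and 8.91 on siSCR arrays.

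C3 did not follow them in Hs343T. It read 7.48 and 7.57 with siRECK, against 7.72 and 7.38 with siSCR, and the arrays overlapped (difference -0.03, 95% interval -0.955 to 0.90; adjusted p = 0.977). C4BPB lay at background and differed by -0.03 (95% interval -0.51 to 0.44). Of the surface regulators, CD55 rose by 0.41 (95% interval 0.21 to 0.60; adjusted p = 0.00538), with 11.04 and 11.04 on siRECK arrays, against 10.63 and 10.64 on siSCR arrays. The second CD55 probe set, 201926_s_at, differed by 0.04 (95% interval -0.16 to 0.23; adjusted p = 0.836), so the CD55 probe sets disagreed. CD46 differed by -0.05 (95% interval -0.34 to 0.23) and CD59 by -0.04 (95% interval -0.24 to 0.15). A further CD59 probe set, 200983_x_at, whose suffix marks possible cross-hybridisation, fell by 0.27 (adjusted p = 0.0485).

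The median over the 9 leading probe sets in Hs343T was 0.41, beside -0.06 over all genes. None of the 5 calls on leading probe sets was lost when any 1 array of the series was left out. The fibroblast markers summed to 125.2 and 126.0 on the siRECK arrays, against 128.6 and 129.1 on the siSCR arrays, and the leukocyte markers to 70.3 and 70.4, against 70.7 and 71.3. Their part in these differences was not tested.

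In Hs606T no complement probe set of 16 passed, beside 0.846% of all probe sets. An unadjusted p under 0.05 in limma was found for 3, with no share of all probe sets counted at that threshold. C1R read 10.84 and 10.95 on arrays labelled siRECK, against 10.85 and 10.94 on those labelled siSCR (difference -0.004, 95% interval -0.45 to 0.44). C1S read 11.27 and 11.23 with siRECK, against 11.35 and 11.37 with siSCR (difference -0.11, 95% interval -0.57 to 0.36). SERPING1 read 9.075 and 9.40 with siRECK, against 9.13 and 8.99 with siSCR (difference 0.18, 95% interval -0.28 to 0.64). The arrays of C1R and SERPING1 overlapped between the labels, and those of C1S did not.

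CFB lay on the other side in Hs606T, with 8.32 and 8.14 on siRECK arrays, against 9.02 and 8.96 on siSCR arrays (difference -0.76, 95% interval -1.60 to 0.07; adjusted p = 0.523). The arrays did not overlap, which was not set against the share of all probe sets. The SE of 0.38 pools all 8 groups, with CFB SDs of 1.02 in MDAMB231 EV and 0.79 in LM24175 RECK. Within Hs606T the SDs were 0.12 with siRECK and 0.04 with siSCR. Both first, or both second, arrays of LM24175 RECK and MDAMB231 EV were also left out of the fit. No Hs606T array was removed there, so the difference of -0.76 could not change. The pooled spread did change, and whether CFB passed changed with it. The missing call for CFB on all arrays therefore depends on arrays of other lines. C4BPB differed by -0.63 (adjusted p = 0.285) at levels near background, and CD55 by -0.25 (95% interval -0.45 to -0.05; adjusted p = 0.326). C3 differed by -0.31 (95% interval -1.24 to 0.62), CD46 by 0.065 (95% interval -0.22 to 0.35) and CD59 by 0.04 (95% interval -0.16 to 0.24). The median over the 9 leading probe sets was -0.11, beside -0.005 over all genes.

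**Figure D3:**
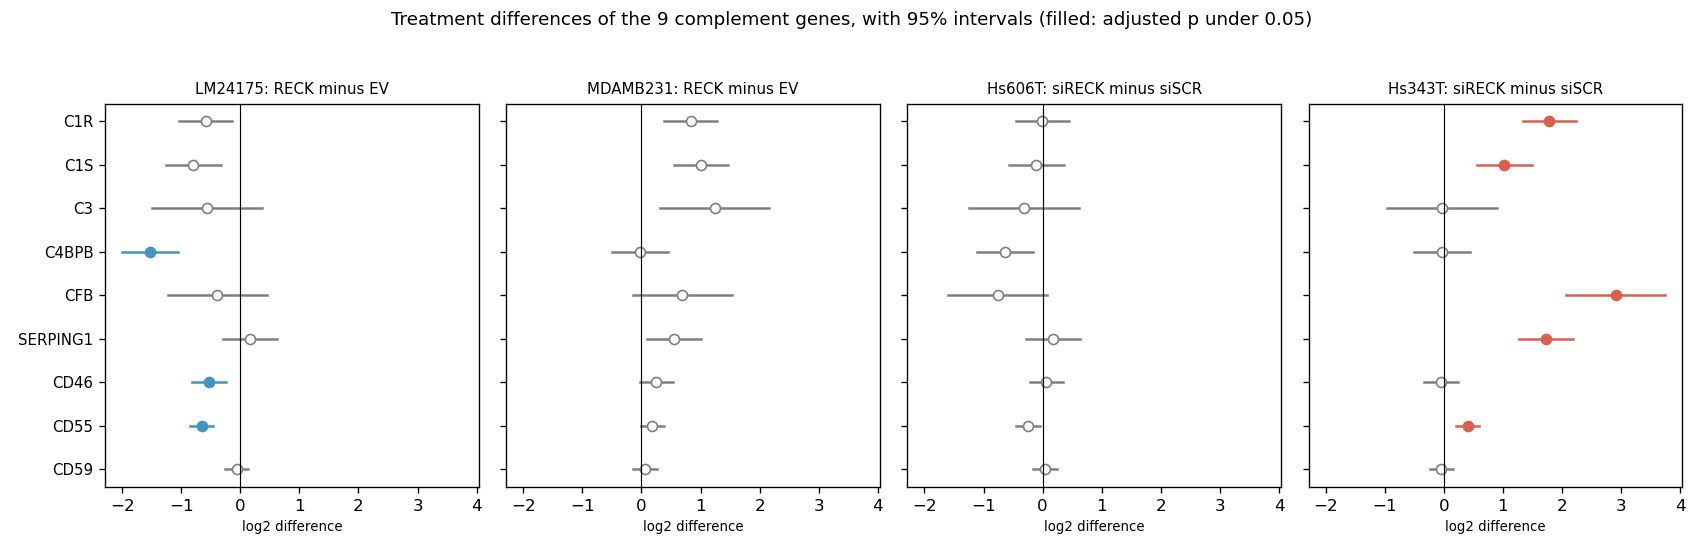
Treatment difference (log2 units) of each complement gene's leading probe set in the 4 lines, with 95% intervals, on a common axis. Filled points passed (red higher, blue lower): CFB, C1R, SERPING1, C1S and CD55 in Hs343T and C4BPB, CD55 and CD46 in LM24175, while no point is filled in MDAMB231 or Hs606T.

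The siRECK minus siSCR difference was unequal in Hs606T and Hs343T in 5 of 16 probe sets, each of another gene and each lower in Hs606T, beside 16.3% of all probe sets in either direction and 7.22% lower. The difference between responses was -3.67 for CFB (95% interval -4.86 to -2.49; adjusted p = 0.000523), -1.79 for C1R (95% interval -2.42 to -1.16; adjusted p = 0.00101) and -1.56 for SERPING1 (95% interval -2.20 to -0.91; adjusted p = 0.00309). It was -1.13 for C1S (adjusted p = 0.0217) and -0.65 for CD55 (adjusted p = 0.0038), and the second CD55 probe set did not pass (-0.28, adjusted p = 0.181). The C1S call ended without any 1 of 7 of the 8 arrays compared, with adjusted p up to 0.0767, and held without the first Hs343T siSCR array.

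With siSCR, C1R, C1S, C3, CFB, SERPING1 and CD46 were higher in Hs606T than in Hs343T, CD55 was lower, and C4BPB and CD59 did not pass on their leading probe sets. C1R was 8.03-fold higher in Hs606T (95% interval 5.89 to 10.96; adjusted p = 4.64e-07), CFB 5.17-fold (95% interval 2.89 to 9.24; adjusted p = 0.000481) and C1S 5.11-fold (95% interval 3.71 to 7.04; adjusted p = 4.43e-06). C3 was 3.60-fold higher (95% interval 1.89 to 6.84; adjusted p = 0.00533) and SERPING1 2.26-fold (95% interval 1.64 to 3.10; adjusted p = 0.000966). All 3 CD46 probe sets were higher in Hs606T, by 0.78, 0.93 and 0.85. CD59 differed by -0.16 (adjusted p = 0.209), while 200983_x_at was higher by 0.27 (adjusted p = 0.0386). CD55 was lower by 0.40 on its leading probe set (difference -0.40, adjusted p = 0.00476), a call lost without the first Hs606T siSCR array (-0.34, adjusted p = 0.0525), and its second probe set differed by 0.09. C4BPB differed by 0.20 near background, and passed without the second Hs343T siSCR array (0.60, adjusted p = 0.039).

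Of the 16 probe sets 10 passed between Hs606T and Hs343T with siSCR, beside 31.5% of all, with 9 higher (16.3% of all) and 1 lower (15.2% of all). The siSCR arrays enter both this comparison and the siRNA differences, so the sets of values are not independent. Hs343T siRECK arrays averaged 9.53 for CFB and 9.62 for SERPING1, and Hs606T siSCR arrays 8.99 and 9.06, a difference that was not tested. The fibroblast markers summed to 138.8 and 138.9 on Hs606T siSCR arrays, against 128.6 and 129.1 on Hs343T siSCR arrays, and their part in these differences was not tested.

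In LM24175, C4BPB, CD55 and, by a narrow margin, CD46 were lower on arrays labelled RECK than on EV arrays. Of 16 complement probe sets 4 passed, all lower, beside 4.41% of all probe sets in either direction and 2.06% lower. C4BPB read 5.57 and 5.37 with RECK, against 7.05 and 6.94 with EV, and fell 2.88-fold (95% interval 2.08 to 4.001; difference -1.53, SE 0.22; adjusted p = 0.00197). CD55 read 11.001 and 11.20 with RECK, against 11.75 and 11.76 with EV (difference -0.65, 95% interval -0.85 to -0.46; adjusted p = 0.00177), and its second probe set fell alike by 0.70 (adjusted p = 0.00114). The RECK and EV arrays of C4BPB, CD55 and CD46 did not overlap. Neither did those of SERPING1, which did not pass, and this was not set against the share of all probe sets. CD46 read 11.43 and 11.79 with RECK, against 12.11 and 12.16 with EV (difference -0.53, 95% interval -0.81 to -0.24; adjusted p = 0.044), while its other probe sets differed by -0.56 (adjusted p = 0.0737) and -0.64 (adjusted p = 0.154).

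The third surface regulator, CD59, differed by -0.06 in LM24175 (95% interval -0.26 to 0.14; adjusted p = 0.851), and its other probe sets by 0.06, 0.05 and -0.24 did not pass either. The proteases lay lower with RECK without passing. C1S read 5.13 and 5.56 with RECK, against 6.08 and 6.19 with EV (difference -0.79, 95% interval -1.25 to -0.33; adjusted p = 0.0571). C1R read 6.40 and 6.85 with RECK, against 7.22 and 7.20 with EV (difference -0.59, 95% interval -1.04 to -0.14; adjusted p = 0.152). The arrays of neither overlapped between RECK and EV, which was not set against the share of all probe sets. C3 differed by -0.57, CFB by -0.39 and SERPING1 by 0.17, none of which passed.

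The median over the 9 leading probe sets in LM24175 was -0.57 on all arrays, beside 0.00 over all genes. Without both first arrays every leading value except that of C4BPB was higher, so this median depends on the arrays used. An unadjusted p under 0.05 in limma was found for 8 of 16, with no share of all probe sets counted at that threshold. Without both first arrays C4BPB (-1.63, adjusted p = 0.016), CD55 (-0.55, adjusted p = 0.00571), CD46 (-0.34, adjusted p = 0.0432) and C1S (-0.58, adjusted p = 0.0172) passed. C1R (-0.36), C3 (0.40), CFB (0.16) and SERPING1 (0.26) did not, the values of C3 and CFB then being above 0. Without both second arrays C4BPB (-1.43, adjusted p = 0.0161), CD55 (-0.75, adjusted p = 0.000769), CD46 (-0.71, adjusted p = 0.00104), C1S (-1.01, adjusted p = 0.000754), C1R (-0.81, adjusted p = 0.00335), C3 (-1.53, adjusted p = 0.000222) and CFB (-0.95, adjusted p = 0.00135) all passed. The CD46 call was lost in 13 of 16 fits that left out 1 array (adjusted p up to 0.293, with -0.34 without the first RECK array), and held without either MDAMB231 EV array or the second LM24175 RECK array. When the second LM24175 RECK array was omitted, C1S (-1.01, adjusted p = 0.0445) and C3 (-1.53, adjusted p = 0.0026) passed. When either MDAMB231 EV array was omitted, C1S (adjusted p = 0.00475) and C1R (adjusted p = 0.0295) passed. With only the arrays of LM24175 in the fit, CD55 (adjusted p = 0.0648) and CD46 (adjusted p = 0.168) did not pass. The fibroblast markers summed to between 62.9 and 66.3 on RECK arrays, against 58.3 and 58.6 on EV arrays, and their part was not tested.

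In MDAMB231 no complement probe set passed, beside 0.239% of all probe sets. An unadjusted p under 0.05 in limma was found for 5 of 16, with no share of all probe sets counted at that threshold. C1S came nearest, with 5.24 and 5.41 with RECK, against 3.90 and 4.74 with EV (difference 1.01, 95% interval 0.54 to 1.47; adjusted p = 0.087). C1R read 6.41 and 6.16 with RECK, against 5.07 and 5.83 with EV (difference 0.83, 95% interval 0.39 to 1.28; adjusted p = 0.14). C3 read 7.86 and 7.84 with RECK, against 6.31 and 6.92 with EV (difference 1.24, 95% interval 0.31 to 2.17; adjusted p = 0.302). For these 3 genes, and for SERPING1 (difference 0.55), CD46 and CD55, both RECK arrays lay above both EV arrays. How many of all probe sets separated in this way was not counted. CFB differed by 0.69 with overlapping arrays, C4BPB by -0.02 (95% interval -0.50 to 0.45), CD46 by 0.25, CD55 by 0.18 and CD59 by 0.06 (95% interval -0.14 to 0.26).

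Single arrays decided calls in MDAMB231. Without the second EV array C1S (1.42, adjusted p = 0.00429), C1R (1.22, adjusted p = 0.00943) and CFB (1.41, adjusted p = 0.0394) passed. Without the first one SERPING1 passed (0.98, adjusted p = 0.035), and C3 passed without either LM24175 RECK array (1.24, adjusted p = 0.011). Without both first arrays C3 (0.93, adjusted p = 0.0173) and SERPING1 (0.98, adjusted p = 0.0196) passed, while C1S (0.59, adjusted p = 0.061), C1R (0.45, adjusted p = 0.187), CD46 (0.06), CD55 (0.11) and CFB (-0.03) did not. Without both second arrays C3 (1.54, adjusted p = 0.00022), C1S (1.42, adjusted p = 0.000132), C1R (1.22, adjusted p = 0.000565), CFB (1.41, adjusted p = 0.000205) and CD46 (0.45, adjusted p = 0.00975) passed and SERPING1 did not (0.12). Of these genes C3 alone passed in both fits. With eBayes trend and robust settings C1S passed on all arrays (adjusted p = 0.0406). The median over the 9 leading probe sets was 0.55 on all arrays, beside 0.01 over all genes. Without both first arrays the values of C1R, C1S, C3, CFB, CD46, CD55 and CD59 were lower, and those of SERPING1 and C4BPB higher. This median therefore depends on the arrays used.

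The RECK minus EV difference was unequal in LM24175 and MDAMB231 in 7 of 16 probe sets from 5 genes, all lower in LM24175, beside 2.62% of all probe sets in either direction and 1.38% lower. The difference between responses was -1.80 for C1S (95% interval -2.45 to -1.15; adjusted p = 0.00999), -1.50 for C4BPB (95% interval -2.17 to -0.84; adjusted p = 0.0263) and -1.42 for C1R (95% interval -2.05 to -0.79; adjusted p = 0.0266). For CD55 it was -0.84 (adjusted p = 0.00754) and for CD46 -0.78 (adjusted p = 0.0486). The second CD55 probe set (-0.85) and 207549_x_at of CD46 (-1.08) passed too. Without both first arrays C1S (-1.17, adjusted p = 0.0066), CD55 (-0.66, adjusted p = 0.0224) and C1R (-0.81, adjusted p = 0.0463) passed, whereas C4BPB (-1.62, adjusted p = 0.1) and CD46 (-0.41, adjusted p = 0.126) did not. Without both second arrays C1S (-2.43), CD55 (-1.01), C1R (-2.03) and CD46 (-1.15) passed, and C4BPB did not (-1.39, adjusted p = 0.0529). CFB was 0.20 (adjusted p = 0.66) without the first arrays and -2.36 (adjusted p = 4.99e-05) without the second, and C3 -0.53 (adjusted p = 0.201) and -3.07 (adjusted p = 2e-05).

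Single arrays mattered here as well. The CD46 call held without the second MDAMB231 EV or the second LM24175 RECK array and ended in the other 14 of 16 fits (adjusted p up to 0.167). The C1R call ended without the first MDAMB231 RECK array, either LM24175 EV array or the first LM24175 RECK array (adjusted p up to 0.105), and the C4BPB call without any of these or the first MDAMB231 EV array (adjusted p up to 0.102). The C1S call ended without the second LM24175 EV array (adjusted p = 0.0514). The CD55 call held in all 16. With only the 8 arrays of these lines in the fit, CD55 (adjusted p = 0.104), C1S (0.112), C1R (0.178) and CD46 (0.233) did not pass. C3 passed without the second LM24175 RECK array (-2.77, adjusted p = 0.000534), and CFB without the second MDAMB231 EV array (-1.80, adjusted p = 0.0252).

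With EV, C1R, C1S, C3 and the leading probe sets of CD46, CD55 and CD59 were higher in LM24175 than in MDAMB231, C4BPB was lower, and CFB and SERPING1 did not pass. C3 read 9.27 and 9.30 in LM24175, against 6.31 and 6.92 in MDAMB231, and was 6.37-fold higher (95% interval 3.35 to 12.1; adjusted p = 0.00102). C1R was 3.40-fold higher (95% interval 2.49 to 4.63; adjusted p = 0.000116). C1S differed by 1.81 (adjusted p = 0.000117), but its MDAMB231 EV level lay below the lower quartile, so no size of fold is given. All 3 surface regulators were higher in LM24175, CD55 by 0.76 (adjusted p = 0.000136), CD59 by 0.62 (adjusted p = 0.000537) and CD46 by 0.47 (adjusted p = 0.0296). C4BPB was lower (difference -0.75, adjusted p = 0.0351), SERPING1 differed by 0.06 (95% interval -0.39 to 0.52) and CFB by -0.44 (95% interval -1.28 to 0.40).

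Between these EV groups 10 of 16 complement probe sets passed, beside 16.3% of all, with 9 higher (7.64% of all) and 1 lower (8.66% of all). The EV arrays also enter the construct differences, so these values share arrays. Without the first MDAMB231 EV array CFB (-1.16, adjusted p = 0.0313) and SERPING1 (0.49, adjusted p = 0.0418) passed and CD46 did not (0.28, adjusted p = 0.215), and C4BPB lost its call without any 1 of the 4 arrays (adjusted p up to 0.178). CD46 also lost it without either LM24175 EV array (adjusted p = 0.102 and 0.156), and its other 2 probe sets did not pass. Without both first arrays C4BPB did not pass (-0.73, adjusted p = 0.135), while CFB (-1.16, adjusted p = 0.000184), SERPING1 (0.49, adjusted p = 0.0358), C1R (1.38), C1S (1.40), C3 (2.37), CD46 (0.275, adjusted p = 0.043), CD55 (0.69) and CD59 (0.53) did. Without both second arrays C4BPB (-0.76, adjusted p = 0.113), CFB (0.28) and SERPING1 (-0.37) did not pass, and C1R (2.15), C1S (2.23), C3 (2.98), CD46 (0.66), CD55 (0.84) and CD59 (0.71) did.

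**Figure D4:**
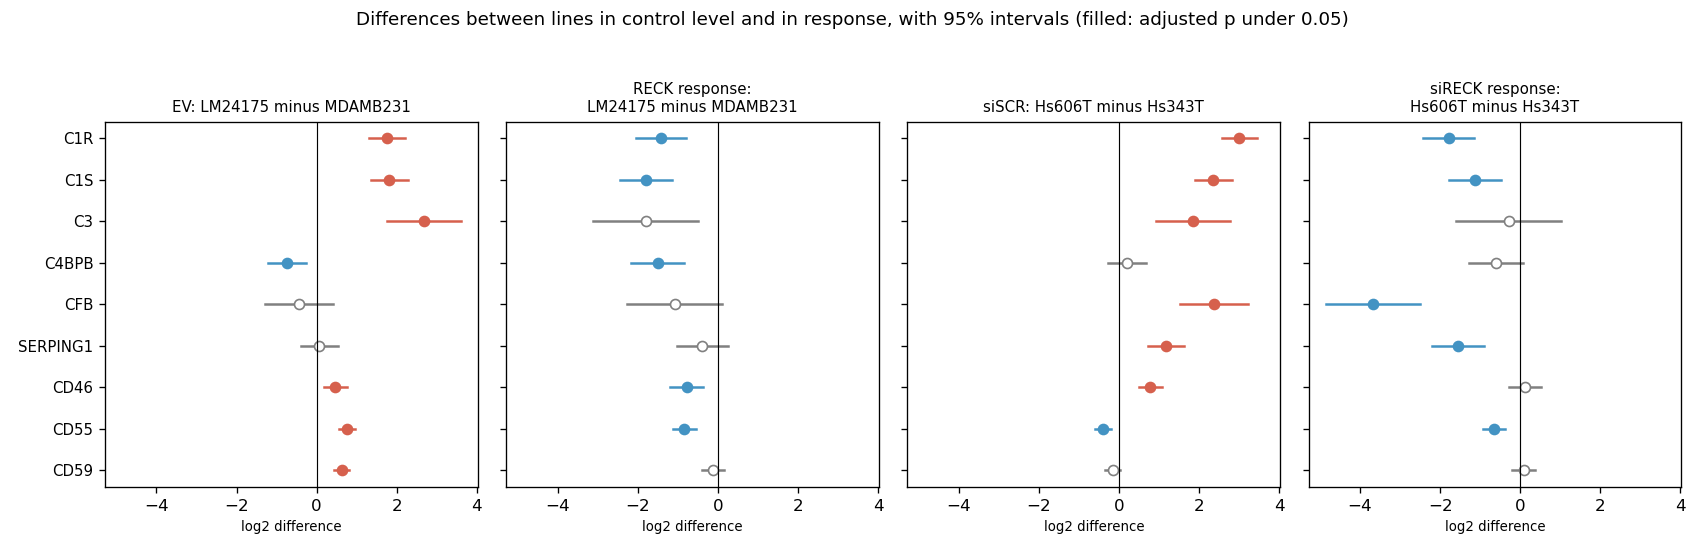
Differences between lines (log2 units, 95% intervals, common axis) of each complement gene's leading probe set, in the control arms and in the response to treatment. C1R, C1S and C3 were higher in LM24175 EV and in Hs606T siSCR, and the treatment-by-line differences that passed (filled) were all below 0, the lowest being CFB at -3.67.

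Of 45 other complement genes listed for comparison, 37 were measured, and few moved with treatment. Both lists were chosen with earlier results of these data known, so a contrast between their counts is no test. In Hs343T 3 passed, beside 27.8% of all genes, led by C3AR1, the receptor for the C3 fragment C3a, which stood at 9.20 ± 0.01 on siRECK arrays, against 5.34 ± 0.08 on siSCR arrays (SD, n = 2), a 14.6-fold rise (95% interval 11.4 to 18.7; adjusted p = 3.9e-09). C3AR1 did not pass in Hs606T (0.11, 95% interval -0.24 to 0.47), and the difference between responses was -3.75 (adjusted p = 3.34e-07), the 1 of 37 to pass there, beside 18.8% of all genes. C3AR1 is known from myeloid cells. Among the leukocyte markers ITGAM averaged 6.15 and CSF1R 5.56 on Hs343T siRECK arrays, against 5.96 and 5.36 on siSCR arrays, while CD14 averaged 5.37 against 5.44, CD163 4.22 against 4.64 and PTPRC 3.48 against 3.67. The part of leukocyte transcripts in the C3AR1 difference was not tested. CFD, the protease that cuts factor B, and C6, a part of the membrane pore, fell by 0.45 (adjusted p = 0.0467) and 0.32 (adjusted p = 0.0445) in Hs343T, where C6 lay below the lower quartile.

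In LM24175 1 of 37 passed, beside 5.37% of all genes. It was C1RL, a C1r-like protease, which fell by 0.90 (95% interval 0.44 to 1.37 lower; adjusted p = 0.0342) to 4.61 ± 0.48 with RECK, against 5.52 ± 0.02 with EV. None passed in MDAMB231 (0.251% of all genes), in Hs606T (0.970%) or between the construct responses (2.96%). Between LM24175 and MDAMB231 with EV 2 passed, beside 19.1% of all genes. C1RL was higher by 1.09 and the scavenger receptor COLEC12 lower (difference -2.15, adjusted p = 0.00385), although its MDAMB231 EV arrays spread widely (3.74 ± 0.25 in LM24175, against 5.89 ± 1.39 in MDAMB231). The LM24175 EV level of COLEC12 lay below the lower quartile of 4.49. The MDAMB231 EV level of C1RL (4.42) lay below the lower quartile of 4.50. Between Hs606T and Hs343T with siSCR 8 passed, beside 35.3% of all genes, 3 higher and 5 lower. The largest were C1RL (1.05), CLU, a fluid-phase inhibitor of the membrane pore (-0.90), MASP1, a protease of the lectin route (-0.76), and C1QA, a chain of C1q (-0.51). Median differences over the 37 genes ran from -0.13 to 0.06 in the 8 comparisons.

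Genes with the most similar profile were sought over the 16 arrays among 4188 or 4189 genes whose mean level exceeded the median of all probe sets and whose group means spanned at least 1 log2 unit. The correlations describe arrays that share lines and replicates. The nearest to C1R were IL1R1 (r = 0.979), C1S (0.975) and CCL7 (0.973), to C1S MFGE8 (0.993), IL1R1 (0.992) and GPNMB (0.988), and to SERPING1 CCL2 (0.990), MSX1 (0.987) and HLX (0.987). For C4BPB they were HLA-DRB1 (0.979), CHRDL1 (0.956) and HLA-DPA1 (0.955), for CFB BCL2A1 (0.949), TTC17 (0.937) and SCARB2 (0.933), and for C3 EPS8 (0.882), GDF15 (0.878) and PAPPA2 (0.861). CD46 was nearest to APLP2 (0.988), SIK1 (0.981) and CRY1 (0.975), CD55 to ARHGAP29 (0.933), TM7SF3 (0.930) and TIPARP (0.929), and CD59 to P3H4 (0.989), TMEM242 (0.979) and RC3H2 (0.979). Among the complement genes themselves C1R and SERPING1 correlated at 0.909 and C1S and SERPING1 at 0.954, whereas C3 with SERPING1 gave 0.171 and C4BPB with C1S -0.858.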

How the data were processed

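Expression had been measured on 16 arrays in 8 groups of 2. The deposited values are log2 intensities summarised by the authors for each probe set, with Partek named in the submitters' processing notes. For its version, the summary method and the scaling, the sources used here say nothing, and the log2 scale was inferred from the range of values. No value was rescaled. Of 22277 probe sets, 62 controls were left out and 22215 were fitted. In the platform annotation 19064 of these had 1 symbol, 1043 had several and 2108 were not listed, and all 9 member genes matched the RefSeq gene table. A linear model with a mean for each of the 8 groups was fitted to all arrays (limma 3.58.1, R 4.3.3, empirical Bayes, residual degrees of freedom 8, prior 3.98), with 8 comparisons, 2-sided tests and Benjamini-Hochberg adjustment over all probe sets. Other complement genes and markers were read from the leading probe set.

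The named genes are the members, RECK, up to 4 passing genes of the other complement list a comparison and the 3 most similar genes of each member. Members and lists were chosen with earlier results of these data known. Of 5 marker lists, the 8 hepatocyte markers summed to between 35.8 and 40.1 per array and the 5 endothelial ones to between 24.1 and 26.2. Alternatives were quantile normalization, median centring, 1 probe set or the mean of all probe sets a gene, no dim probe sets, trend and robust, only the arrays compared, a replicate block, a 1.5-fold minimum and leaving out arrays. The procedure was tested on simulated data. Figures were made with Python 3.11.15 and matplotlib 3.10.9.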

Additional observations from a re-analysis of the deposited data

Results flagged for a closer look

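These 10 values are listed because the response of a complement gene to treatment differed between 2 lines by a test of the difference itself. For the RECK construct, the response in LM24175 minus that in MDAMB231 was -1.42 for C1R, -1.80 for C1S, -1.50 for C4BPB, -0.78 for CD46 and -0.84 for CD55. For siRECK, the response in Hs606T minus that in Hs343T was -1.79 for C1R, -1.13 for C1S, -3.67 for CFB, -1.56 for SERPING1 and -0.65 for CD55. Groups of 2 arrays are too small for a test of outlying arrays.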

How the results depend on the processing

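No member difference called on all arrays changed sign under any alternative run. None called in an alternative had the opposite sign on all arrays. Between alternatives signs could differ. Between EV groups CFB was -1.16 without both first arrays and 0.28 without both second, and SERPING1 0.49 and -0.37. Of 720 member values under settings other than leaving out 1 array, 20 lost a call and 23 gained one, and of 1152 values with 1 array left out, 52 lost and 18 gained one. Of 32 member calls, 23 held without any 1 array and 20 in all settings. Member values were not read from the mean of all probe sets a gene, so these results leave that setting out. Without both first, or both second, arrays of LM24175 RECK and MDAMB231 EV, 1 array was left in each of these groups. Counts of calls then moved in several comparisons, and the fit without both second arrays was chosen after seeing the data. Calls over all probe sets moved with the setting as well. Of 22215 probe sets, 980 passed in LM24175 on all arrays and 204 with only the arrays compared. In MDAMB231 53 passed on all arrays and 136 with trend and robust. A change in a member count alone is therefore no result about these genes. Counts on all arrays stand in brackets below. With only the arrays compared, member counts were 2 in LM24175 (4), 1 in the RECK response (7) and 6 between EV groups (10), and other genes 0 in LM24175 (1), 5 in Hs343T (3), 4 in the siRECK response (1) and 1 between EV groups (2). At a 1.5-fold minimum 6 member probe sets passed between EV groups (10), and other genes 1 in Hs343T (3) and 3 between siSCR groups (8). With trend and robust, 1 member probe set passed in MDAMB231 (0) and 1 other gene in the RECK response (0). Averaging each gene's probe sets gave 1 other gene in the RECK response (0) and 4 between EV groups (2), and dropping probe sets below the 0.25 quantile 5 between siSCR groups (8). With 1 array left out, member counts ran from 0 to 3 in MDAMB231, 3 to 6 in LM24175, 5 to 6 in Hs343T, 2 to 9 in the RECK response, 4 to 5 in the siRECK response, 7 to 11 between EV groups and 7 to 10 between siSCR groups, and stayed at 0 in Hs606T. Counts of other genes ran from 0 to 1 in MDAMB231 and LM24175, 1 to 4 in Hs343T, 0 to 2 in the RECK response, 1 to 2 in the siRECK response, 2 to 5 between EV groups and 3 to 11 between siSCR groups, and were 0 in Hs606T. Arrays with the same replicate number did not deviate together within lines (r from -0.054 to 0.0056). This does not show whether the numbers pair samples, since samples handled together need not share a deviation. With the replicate number as a block, 4 member probe sets passed in the RECK response (7), C1S passed in LM24175 (adjusted p = 0.044), and CD46 in LM24175 (0.0785), C1R (0.0838) and CD46 (0.0967) in the RECK response did not. Of the 5 calls in the RECK response, 0 were kept in all settings. In each fit the spread of a probe set was pooled over all arrays used. Leaving out arrays of another line therefore changed the SE and the adjusted p, and not the difference. Why arrays deviated, and other causes of these changes, were not tested. Signals near background limit C4BPB in Hs606T and Hs343T, C1S in MDAMB231 EV and the second CFB probe set.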
